A study of Mus musculus with 9 samples.

Results

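The transcripts described here are those of 10 genes out of 55487 listed: the cytosolic heat shock chaperones Hspa1a, Hspa1b, Hspa8, Hsph1, Hsp90aa1, Hsp90ab1, Dnajb1 and Hspb1, the co-chaperone Bag3, and Hsf1, which encodes the main transcription factor of the heat shock response. All 10 symbols were found once each. They were chosen by name with their TPM values in these libraries already known, so their values and differences are given as a description and no p-value is printed for any of them. The levels came from bulk RNA-seq of CD4+ T cells taken by negative selection from the spleens of wild type (Trail-r+/+) C57BL/6 mice, which were female and 6 to 7 weeks old, and cultured in RPMI-1640 with fetal calf serum, penicillin and streptomycin in every group. Of the 9 libraries, 3 came from cells kept in this medium without Abs, whose culture time the labels do not give. Another 3 came from cells stimulated for 24 h with Abs against CD3, at 3 µg/ml, and CD28, at 2 µg/ml, and the last 3 from cells given the same Abs together with TRAIL (10 µg/ml), a member of the tumor necrosis factor superfamily of ligands, over the same 24 h. Whether libraries of a group came from separate mice or from pools is not stated, so the spread between them may be technical. No group with TRAIL but no Abs was analysed here.

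Heat shock proteins are chaperones, which bind unfolded or unfinished proteins and keep them from aggregating. HSP70 proteins hold short exposed stretches of a client and let go of it in a cycle driven by ATP, J-domain proteins such as DNAJB1 deliver the client and start the ATP step, and HSPH1 and BAG3 help to exchange the nucleotide. HSP90 proteins then act on a narrower set of clients, among them kinases and steroid receptors, and small heat shock proteins such as HSPB1 hold aggregating proteins without ATP. In resting cells HSF1 is kept inactive by chaperones. When unfolded protein draws the chaperones away, HSF1 forms trimers and binds heat shock elements, which are repeats of the unit nGAAn in alternating direction. Some of these genes (Hspa8, Hsp90ab1) are active in nearly all cells, whereas Hspa1a and Hspa1b are the classic strongly inducible pair. Growing lymphocytes are known to make more chaperones as their protein synthesis increases.

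The promoters are shown first, since HSF1 is known to act through this element. RefSeq promoter windows (GRCm38.p6, 250 bases before to 50 bases after the start) were at hand for 6 of the 10 genes, namely Hspa1a, Hspa1b, Hspb1, Hsph1, Bag3 and Dnajb1. The search was for 2 adjoining heat shock units (GAANNTTC or TTCNNGAA, each its own reverse complement, so that both strands are covered). For 4 genes, and for Dnajb1 as one without a match, the 250 bases before the start are printed 5′ to 3′ on the strand of the gene, with matches in capitals. The Hspa1a promoter lies at chr17:34972157-34972406 (minus strand), that of Hspa1b at chr17:34959239-34959488 (minus), that of Hspb1 at chr5:135887669-135887918 (plus), that of Hsph1 at chr5:149636337-149636586 (minus) and that of Dnajb1 at chr8:83607925-83608174 (plus).
Hspa1a: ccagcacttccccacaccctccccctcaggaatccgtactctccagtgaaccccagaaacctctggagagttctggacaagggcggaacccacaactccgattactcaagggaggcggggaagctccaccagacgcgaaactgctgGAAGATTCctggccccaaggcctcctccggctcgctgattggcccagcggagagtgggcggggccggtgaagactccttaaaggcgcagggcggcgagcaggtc
Hspa1b: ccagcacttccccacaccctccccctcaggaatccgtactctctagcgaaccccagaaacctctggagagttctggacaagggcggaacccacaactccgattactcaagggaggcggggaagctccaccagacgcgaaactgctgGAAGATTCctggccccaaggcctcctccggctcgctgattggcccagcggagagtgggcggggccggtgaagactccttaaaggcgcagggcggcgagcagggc
Hspb1: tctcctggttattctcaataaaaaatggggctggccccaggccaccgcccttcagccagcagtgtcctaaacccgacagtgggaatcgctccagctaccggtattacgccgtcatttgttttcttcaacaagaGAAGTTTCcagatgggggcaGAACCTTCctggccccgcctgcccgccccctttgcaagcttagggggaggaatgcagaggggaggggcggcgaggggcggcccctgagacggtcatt
Hsph1: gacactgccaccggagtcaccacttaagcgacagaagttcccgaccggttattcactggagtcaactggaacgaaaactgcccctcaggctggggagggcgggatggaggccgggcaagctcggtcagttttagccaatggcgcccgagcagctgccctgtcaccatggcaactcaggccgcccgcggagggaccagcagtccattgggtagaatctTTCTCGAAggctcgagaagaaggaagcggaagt
Dnajb1: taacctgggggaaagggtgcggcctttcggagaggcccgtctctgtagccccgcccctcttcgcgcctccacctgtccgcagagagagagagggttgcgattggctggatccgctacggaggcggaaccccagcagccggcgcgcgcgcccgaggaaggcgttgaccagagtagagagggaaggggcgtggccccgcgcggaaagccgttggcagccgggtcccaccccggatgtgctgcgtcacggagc

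The Hspa1a and Hspa1b sequences differed at 3 of 250 bases, and both held 1 match at the same place, with its first base 104 bases before the start. Hspb1 held 2 matches in these 250 bases and Hsph1 held 1, whose first base lay 33 bases before the start. After the start, Hsph1 held a further pair of overlapping matches that together made a run of 3 units, each GAA or TTC and 2 free bases from the next, and Bag3 held its only match. Dnajb1 held none in its window. Among 32817 promoter windows of the same length, 15.1% held at least 1 match, 1.95% held 2 or more, and 0.603% held the run of 3 units. The CCAAT box (CCAAT or ATTGG) was found in Hspa1a and Hspa1b at the same place, 67 bases before the start, and in Hsph1 and Dnajb1 at 2 places each, against 37.4% of all windows with at least 1. These are matches of letters only, and no binding was measured.

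**Figure D1:**
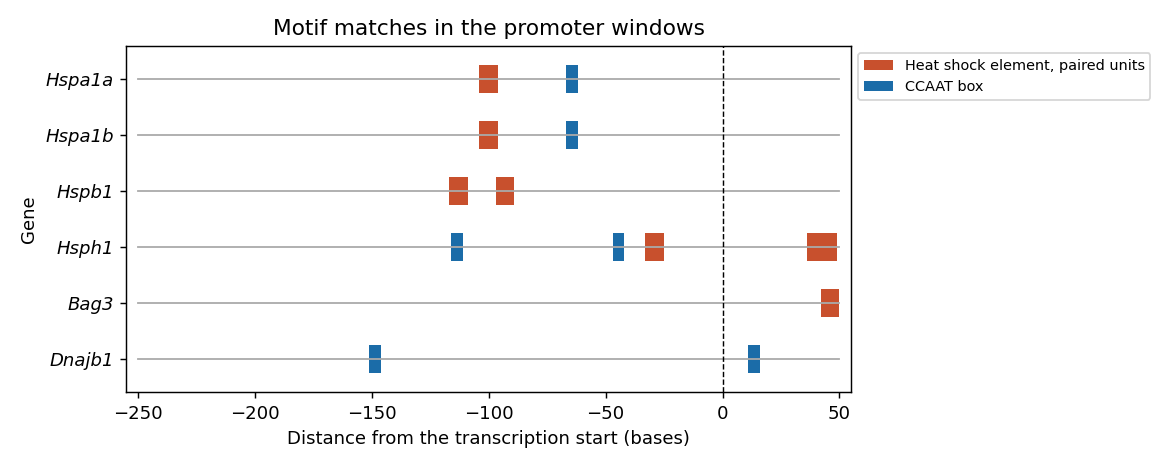
Position of motif matches in the 6 promoter windows, in bases from the transcription start (dashed line, x axis), for each gene (y axis). Red bars are pairs of heat shock units and blue bars are CCAAT boxes. Hspa1a and Hspa1b have both motifs at the same places, and Dnajb1 has no red bar.

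Levels are given in TPM, a unit of transcript abundance that corrects each gene for its length and gives each library the same total of 1000000, so that levels can be set side by side between genes as shares of the library. The depth behind the values is unknown, since TPM keeps no read totals. Differences between groups are log2 fold changes on the log2(TPM + 1) scale with their standard error (SE) from limma, fitted on all 9 libraries and the 15536 genes that reached 1 TPM in 3 or more of them. A call was made when a gene had a Benjamini-Hochberg adjusted p under 0.05 over all of these and a log2 fold change of 1 or more in size. All 10 genes passed the filter on low values, but Hspb1 did so only through the 3 libraries with TRAIL.

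Hspa1a and Hspa1b, the inducible HSP70 pair, were close to silent in stimulated cells and among the most abundant transcripts with TRAIL. Both are genes of a single exon on the minus strand of chromosome 17 (GRCm38), Hspa1a at 34969190 to 34972156 and Hspa1b at 34956436 to 34959238. Their coding sequences were identical at 1918 of 1926 aligned bases (99.6%), and 38.1% of all stretches of 150 bases in the Hspa1a transcript were also found unchanged in that of Hspa1b. The division of reads between them is therefore uncertain, and their sum is the firmer value. The sum was 447, 607 and 511 TPM in the medium libraries, 2.73, 3.49 and 3.52 TPM in the stimulated libraries, and 2832, 2695 and 2276 TPM in the libraries with TRAIL. No library of one group reached the values of another, with TRAIL-treated cells highest and stimulated cells lowest. The means were 522 ± 80.9 (SD, n = 3) in medium, 3.24 ± 0.448 (n = 3) after stimulation and 2601 ± 290 (n = 3) after stimulation with TRAIL. The mean TPM was thus 161-fold lower after stimulation than in medium, 802-fold higher with TRAIL than after stimulation alone, and 4.99-fold higher with TRAIL than in medium. On the log2 scale the sum differed by -6.94, 9.26 and 2.32 in these comparisons (SE 0.14). Ranked among all genes of a library, the sum stood at 172 to 276 in medium, 11521 to 11776 after stimulation and 39 to 53 with TRAIL.

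Each gene of the pair followed the same order, and the fitted size of its change depends on the pseudocount because the stimulated levels are low. Over the alternatives run, the log2 fold change after stimulation ranged from -7.05 to -4.91 for Hspa1a and from -7.36 to -5.61 for Hspa1b, and that with TRAIL against stimulation alone from 7.39 to 9.56 and from 7.80 to 9.57. Hspa1a was listed at 159, 218 and 182 TPM in medium, at 1.00, 1.43 and 1.50 TPM after stimulation, and at 1143, 1093 and 933 TPM with TRAIL. Hspa1b was listed at 288, 389 and 328 TPM in medium, at 1.73, 2.05 and 2.01 TPM after stimulation, and at 1690, 1602 and 1343 TPM with TRAIL. Hspa1b took 64.0 to 64.5% of the summed level in medium and 59.0 to 59.7% with TRAIL, ranges that do not overlap, and 57.2 to 63.3% after stimulation, where the values are low. Gm20481, a gene annotated on the opposite strand over Hspa1a, was listed at 0.420 TPM or less in every library, and whether reads were counted by strand is not stated.

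**Figure D2:**
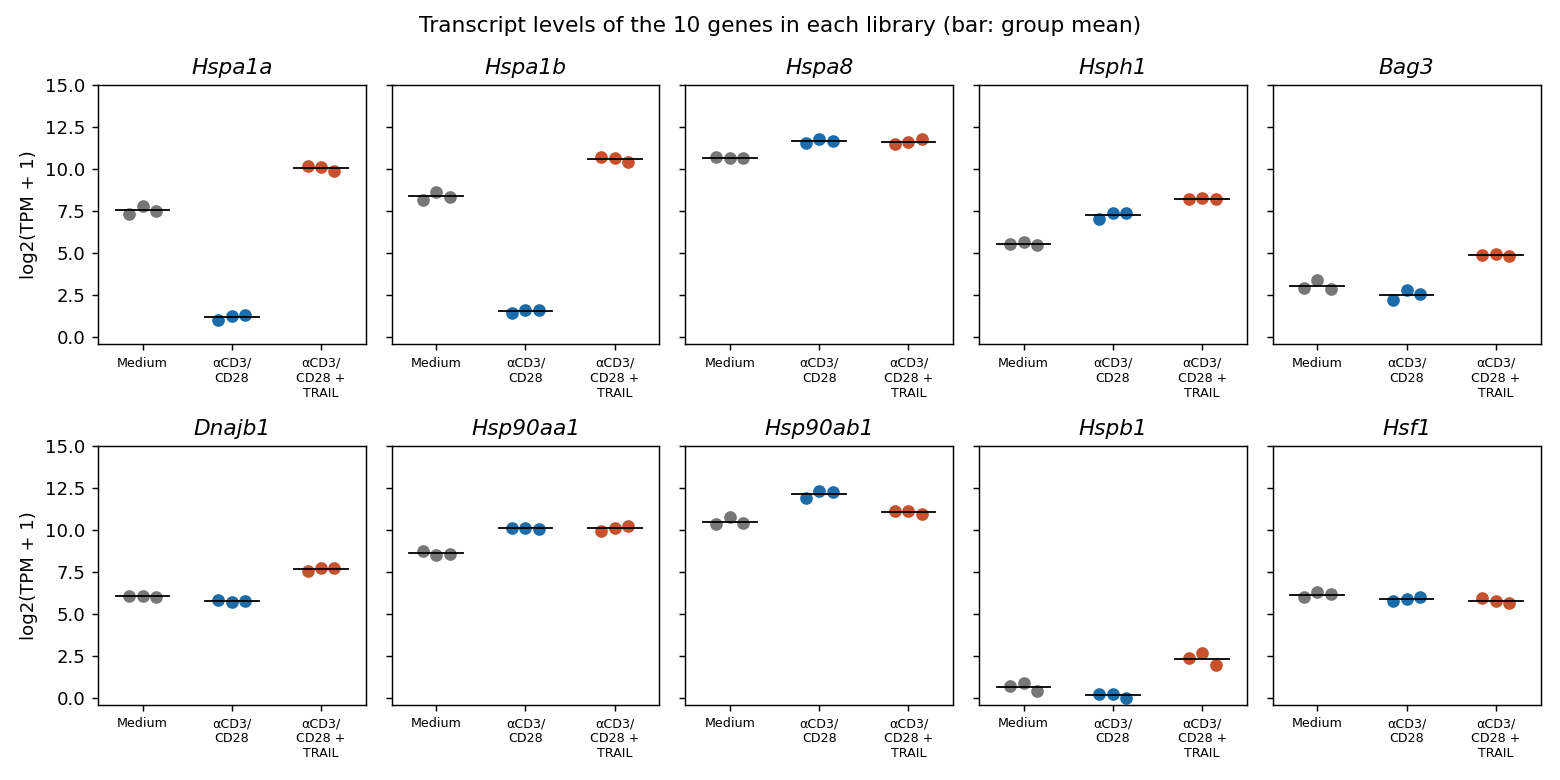
Level of each of the 10 genes, as log2(TPM + 1) on the y axis, in the 3 libraries of each group on the x axis (points) with the group mean (black bar). Hspa1a and Hspa1b are near the bottom of the scale in stimulated cells and highest with TRAIL, Hspa8 and both Hsp90 genes are lowest in medium, and Hsf1 keeps within a narrow range.

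Hspa8, the HSP70 protein present in nearly all cells, showed a different order. It was listed at 1650, 1592 and 1581 TPM in medium, at 3026, 3582 and 3278 TPM after stimulation, and at 2862, 3071 and 3484 TPM with TRAIL. Both stimulated groups were above every medium library and overlapped each other. The means were 1608 ± 37.3, 3295 ± 279 and 3139 ± 317 TPM (SD, n = 3 each), with a log2 fold change of 1.03 (SE 0.11) after stimulation against medium and -0.07 (SE 0.11) with TRAIL against stimulation alone. The difference of TRAIL-treated cells from medium was 0.96, just under the limit of 1 for a call. Both values lie close to that limit, since the call after stimulation was lost without stimulated replicate 2 (0.97) and with quantile normalization (0.90), and a call with TRAIL against medium was gained without TRAIL-treated replicate 1 (1.02) and with median-of-ratios scaling (1.13). The coding sequences of Hspa1a and Hspa8 were identical at 74.5% of aligned bases and shared none of the 150-base stretches. The sum of Hspa1a and Hspa1b came to 27.1 to 38.1% of the Hspa8 level in medium, 0.0901 to 0.107% after stimulation and 65.3 to 99.0% with TRAIL.

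Hsph1 encodes a large relative of HSP70 that acts as its nucleotide exchange factor. Its levels were 45.3, 49.0 and 43.7 TPM in medium, 130, 169 and 163 TPM after stimulation, and 294, 309 and 303 TPM with TRAIL. It was the one gene of the 10 that was higher in each group than in the one before without overlap, in the order medium, stimulated, stimulated with TRAIL. The log2 fold change was 1.72 (SE 0.11) for stimulation, 0.97 (SE 0.11) for TRAIL against stimulation alone and 2.69 (SE 0.11) for TRAIL against medium. The middle value passed the limit for a call without stimulated replicate 2 (1.05) or 3 (1.02).

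Bag3 encodes another exchange factor of HSP70, which directs clients to autophagy. It was listed at 6.47, 9.48 and 6.42 TPM in medium, at 3.67, 5.91 and 4.92 TPM after stimulation, and at 28.7, 30.4 and 27.2 TPM with TRAIL. The TRAIL-treated libraries stood apart from all others, and the stimulated libraries lay just under those in medium with a gap smaller than the spread within either group. The log2 fold change with TRAIL was 2.37 (SE 0.18) against stimulation alone and 1.83 against medium.

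Dnajb1, the J-domain partner of inducible HSP70, was highest with TRAIL. It was listed at 65.8, 67.1 and 64.3 TPM in medium, at 54.8, 52.2 and 53.7 TPM after stimulation, and at 189, 211 and 212 TPM with TRAIL. The 3 groups did not overlap. The log2 fold change was -0.29 (SE 0.083) after stimulation, 1.90 for TRAIL against stimulation alone and 1.62 for TRAIL against medium.

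Both HSP90 genes were higher after stimulation than in medium, and they parted with TRAIL. Hsp90ab1, the constitutive form, was listed at 1280, 1704 and 1343 TPM in medium, at 3791, 4974 and 4934 TPM after stimulation, and at 2227, 2199 and 1933 TPM with TRAIL. Its 3 groups did not overlap, with stimulated cells highest and TRAIL-treated cells between. Hsp90aa1, the more inducible form, was listed at 420, 364 and 372 TPM in medium, at 1104, 1080 and 1062 TPM after stimulation, and at 978, 1085 and 1196 TPM with TRAIL. The range with TRAIL spanned that after stimulation alone, and both lay above every medium library. For TRAIL against stimulation alone, the log2 fold change was -1.10 (SE 0.15) for Hsp90ab1 and 0.00062 (SE 0.10) for Hsp90aa1. Hsp90aa1 made up 17.6 to 24.7% of the summed HSP90 level in medium, 17.7 to 22.6% after stimulation and 30.5 to 38.2% with TRAIL, where no library overlapped the other groups. The coding sequences of the pair were identical at 76.3% of aligned bases and shared none of the 150-base stretches.

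Hspb1, a small heat shock protein, was near the limit of the table. It was listed at 0.637, 0.829 and 0.330 TPM in medium, at 0.186, 0.180 and 0.0001 TPM after stimulation, and at 4.25, 5.44 and 2.88 TPM with TRAIL. The value of 0.0001 TPM is the most frequent one in the table and stands for no estimate. The libraries with TRAIL were above all others, by a fitted log2 fold change of 2.18 (SE 0.20) against stimulation alone. That size depends on the pseudocount, since it was 4.38 with a pseudocount of 0.1 and 0.83 with a pseudocount of 5, where the call was lost.

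Hsf1 itself varied least of the 10 between groups. It was listed at 62.3, 78.1 and 70.3 TPM in medium, at 53.7, 58.6 and 63.7 TPM after stimulation, and at 60.8, 52.9 and 48.4 TPM with TRAIL. The stimulated libraries overlapped both other groups, while every library with TRAIL was lower than every medium library, by a log2 fold change of -0.37 (SE 0.12). HSF1 is known to be controlled mainly as a protein, by chaperone binding, modification and entry into the nucleus, none of which RNA-seq measures.

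**Figure D3:**
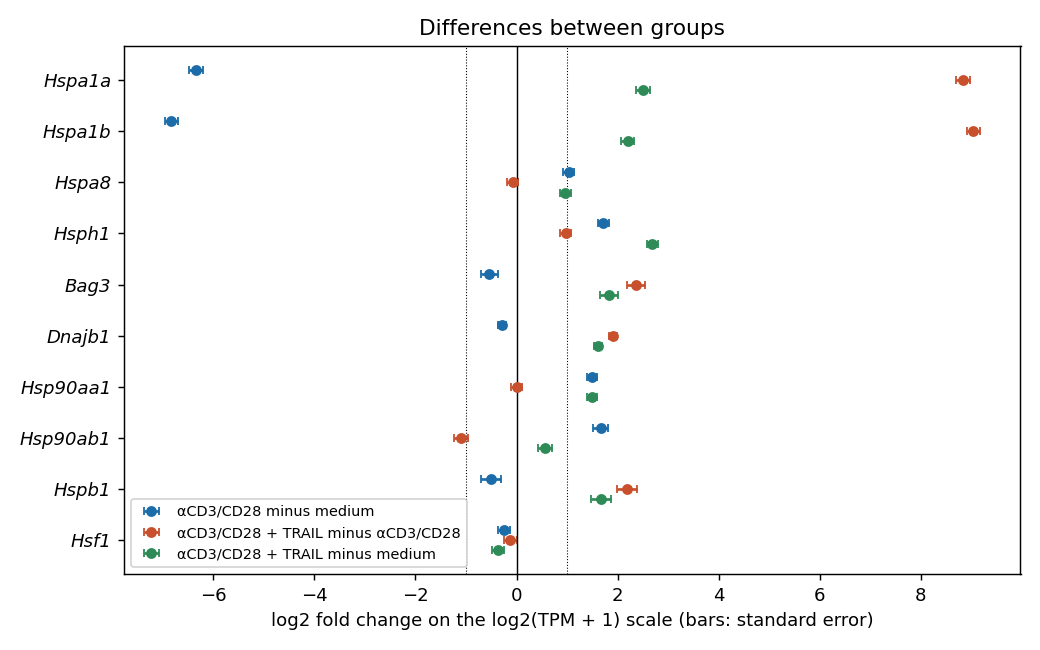
Log2 fold changes on the log2(TPM + 1) scale (x axis) of the 10 genes (y axis) in the 3 comparisons between groups, with SE as bars and dotted lines at -1 and 1. Hspa1a and Hspa1b have the widest spread, from -6.34 and -6.83 after stimulation to 8.84 and 9.04 with TRAIL against stimulation alone. Every gene but Hsf1 lies right of 0 with TRAIL against medium. The comparisons share libraries and are not independent.

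Counted together, 6 of the 10 genes were called in stimulated against medium cells, 4 higher (Hspa8, Hsph1, Hsp90aa1, Hsp90ab1) and 2 lower (Hspa1a, Hspa1b). Of all 15536 genes tested, 31.9% were called, 12.4% higher and 19.5% lower. Higher calls were thus 38.8% of all calls, and 48.9% with median-of-ratios scaling or 52.1% with quantile normalization. With TRAIL against stimulation alone, 5 were called higher (Hspa1a, Hspa1b, Dnajb1, Hspb1, Bag3) and 1 lower (Hsp90ab1), beside 30.9% of all genes tested, 16.6% higher and 14.3% lower. With TRAIL against medium, 7 were called higher and 0 lower, beside 4.62% of all genes tested, 2.49% higher and 2.13% lower, where higher calls were 53.9% of all calls and 73.0% or 70.6% with the other scalings. The remaining 3 were Hspa8, Hsp90ab1 and Hsf1. Hspb1 is counted as higher in both comparisons with TRAIL, although it passed the filter only through the libraries with TRAIL. Both of its calls were lost with a pseudocount of 5. Groups did not overlap for 9 genes after stimulation against medium, 4 higher and 5 lower, beside 72.6% of all genes tested (29.9% higher, 42.6% lower). They did not overlap for 7 genes with TRAIL against stimulation alone, 6 higher and 1 lower, beside 70.4% (35.5% higher, 34.9% lower), and for all 10 with TRAIL against medium, 9 higher and 1 lower, beside 50.6% (12.4% higher, 38.2% lower). The median log2 fold change was -0.27, 1.44 and 1.65 for the 10 genes and -0.15, 0.011 and -0.18 for all genes tested. Since the genes were chosen with these values known, the shares and medians are given as background and nothing is read from them.

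Seen as a share of the whole library, the 10 genes made up between 0.398 and 0.447% of TPM in medium, 0.817 to 0.993% after stimulation and 0.948 to 0.966% with TRAIL. The totals after stimulation with and without TRAIL overlapped, while the HSP90 and inducible HSP70 parts of them did not. Hsp90aa1 and Hsp90ab1 together took 59.9 to 62.7% of the total after stimulation and 33.0 to 34.0% with TRAIL. Hspa1a and Hspa1b took 0.0334 to 0.0368% after stimulation and 24.0 to 29.9% with TRAIL, against 11.2 to 13.6% in medium. The share of Hspa8 was 35.6 to 41.5% in medium, 34.3 to 37.1% after stimulation and 30.2 to 36.8% with TRAIL.

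**Figure D4:**
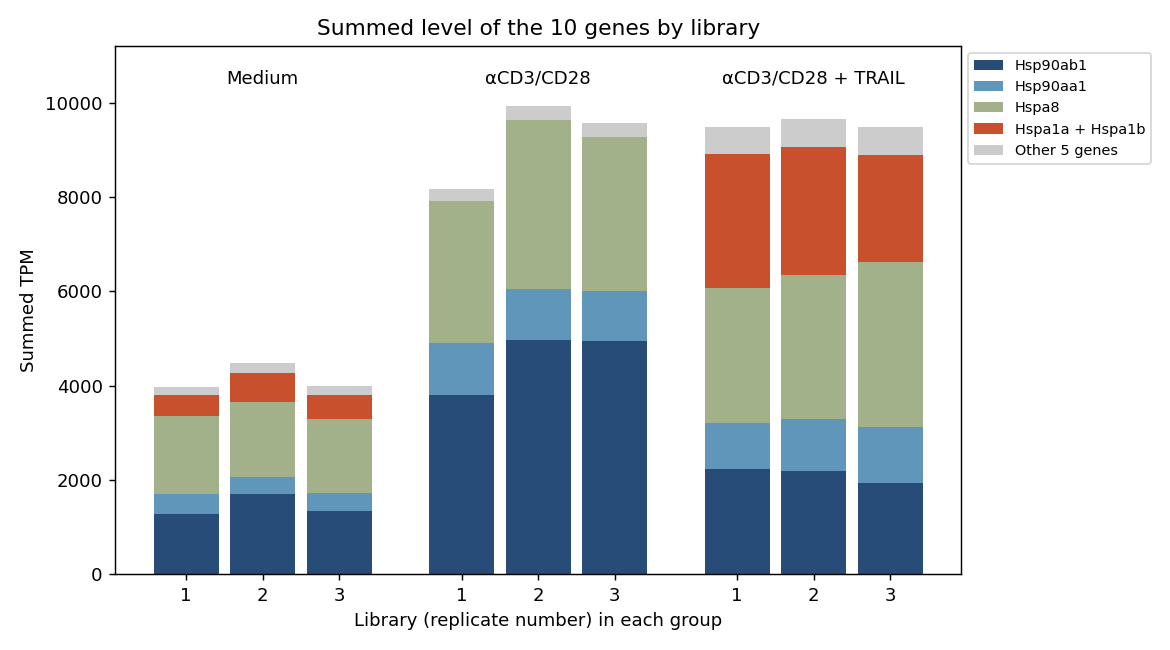
Summed TPM of the 10 genes (y axis) in each library, by replicate number within each group (x axis), stacked by gene. The stacks reach 3977 to 4472 TPM in medium, 8166 to 9927 TPM after stimulation and 9475 to 9658 TPM with TRAIL, and the red block of Hspa1a and Hspa1b cannot be seen in stimulated cells.

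The libraries also hold RNA of other spleen cells, whose level moved with the group. T cell markers (Cd3d, Cd3e, Cd3g, Cd4, Thy1 and Lck) were present throughout, with a summed level of 2489 to 2758 TPM in medium, 1920 to 2088 TPM after stimulation and 2253 to 2527 TPM with TRAIL. The sum of 8 B cell markers was 5649 to 6216 TPM in medium, 684 to 740 TPM after stimulation and 2901 to 3348 TPM with TRAIL. The sum of 10 myeloid markers was 1913 to 2174, 59.1 to 73.4 and 1385 to 1602 TPM in the same order, that of 6 erythroid markers 2081 to 2534, 24.8 to 39.6 and 610 to 660 TPM, and that of 5 NK and CD8 markers 234 to 275, 120 to 126 and 90.1 to 97.6 TPM. In stimulated cells the erythroid marker Alas2 was at 0.0487 TPM or less, and no B cell, myeloid or NK and CD8 marker was listed at 0.0001 TPM. With TRAIL against stimulation alone, 7 of 8 B cell, 10 of 10 myeloid, 6 of 6 erythroid and 2 of 5 NK and CD8 markers were called higher by limma, 1 NK and CD8 marker (Cd8a) was called lower, and 0 of 6 T cell markers were called. The B cell, myeloid and erythroid sums were lowest in stimulated cells, as were Hspa1a and Hspa1b, and their part in that result was not tested. With TRAIL against medium, where the sum of Hspa1a and Hspa1b was higher, the sums of all 4 lists of other cells were lower without overlap and 0 of their tested genes were called higher. Among myeloid markers this held for the sum and not for each gene, since 4 of 10 were lower without overlap, 0 were called and the median log2 fold change was -0.17. The macrophage markers C1qa, Csf1r and Adgre1 had means of 210, 156 and 64.1 TPM in medium and 217, 147 and 61.6 TPM with TRAIL. In bulk RNA, fewer cells of a type and less RNA per cell cannot be told apart. Mitochondrial transcripts took 9.33 to 10.8% of TPM in medium, 5.65 to 5.98% after stimulation and 9.06 to 11.0% with TRAIL.

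Other genes of the chaperone network were taken from 7 lists of 80 genes, of which 69 were tested, and they hold none of the 10 genes above. With TRAIL against stimulation alone, 8 rose and 18 fell, beside 16.6% higher and 14.3% lower of all genes tested. With TRAIL against medium, 6 rose and 0 fell, beside 2.49% and 2.13%, and after stimulation against medium, 17 rose and 6 fell, beside 12.4% and 19.5%. The median log2 fold change of the 69 was -0.30 with TRAIL against stimulation alone and -0.05 with TRAIL against medium, beside 0.011 and -0.18 for all genes tested. Adjusted p-values in the following paragraphs are from limma with Benjamini-Hochberg adjustment over all genes tested. The lists were chosen with earlier results of these data known, and most genes named from them were taken for their large changes. These p-values are therefore descriptive and give no independent evidence.

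Among J-domain co-chaperones, which deliver clients to HSP70, 2 of 20 rose and 2 fell with TRAIL against stimulation alone. Dnajb4, a close relative of Dnajb1, was at 24.1, 23.5 and 22.0 TPM in medium, at 9.91, 10.6 and 11.2 TPM after stimulation and at 110, 124 and 146 TPM with TRAIL. It rose by a log2 fold change of 3.46 (SE 0.11, adjusted p = 4.1e-09) against stimulation alone and by 2.39 (adjusted p = 6.8e-07) against medium. Dnaja1 rose in the same comparisons by 1.49 (adjusted p = 2.8e-07) and 1.21 (adjusted p = 1.6e-05), from means of 210 and 256 TPM to 595 ± 64.6 TPM (SD, n = 3). The fallen genes were Dnajc2, which acts at the ribosome, from 230 to 63.5 TPM, and Dnajc21, which acts in ribosome assembly, from 108 to 42.8 TPM. Their log2 fold changes were -1.84 (adjusted p = 2.3e-08) and -1.32 (adjusted p = 3.6e-07).

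Of 7 tested relatives of HSP70, 3 rose and 2 fell with TRAIL against stimulation alone, and 2 rose against medium. Hspa1l was at 1.86, 2.90 and 2.98 TPM in medium, at 0.253 TPM in one stimulated library and 0.0001 TPM in the other two, and at 15.7, 12.8 and 13.7 TPM with TRAIL, where it rose by 2.08 (SE 0.17, adjusted p = 2.1e-05) against medium. Of the 150-base stretches of Hspa1l, 3.62% were also found in Hspa1a, where the division of reads between them is uncertain. Hspa2 rose from a mean of 5.04 to 13.9 TPM, a log2 fold change of 1.31 (adjusted p = 3.6e-06), and against medium by 1.04 (adjusted p = 0.00018), where the call was lost without medium replicate 1 (0.99). Hspa14, a chaperone of the ribosome, fell from 187 to 69.8 TPM and Hspa4, an exchange factor and relative of Hsph1, fell from 262 to 119 TPM, with log2 fold changes of -1.41 (adjusted p = 2.8e-07) and -1.13 (adjusted p = 1.8e-06). Both had risen after stimulation against medium, by 1.12 and 1.31.

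Among the co-chaperones of HSP90, 8 of 21 rose and 1 fell after stimulation, and 0 rose and 10 fell with TRAIL against stimulation alone. None was called with TRAIL against medium. Their summed level was 1718 to 1747 TPM in medium, 3083 to 3241 TPM after stimulation and 1578 to 1686 TPM with TRAIL. Stip1, which links HSP70 to HSP90, was at 90.1, 120 and 98.9 TPM in medium, at 392, 488 and 496 TPM after stimulation and at 107, 112 and 96.7 TPM with TRAIL. It fell by 2.11 on the log2 scale (SE 0.13, adjusted p = 3.0e-07) with TRAIL, and its libraries in medium and with TRAIL overlapped. Nudc fell from a mean of 354 to 90.0 TPM, a log2 fold change of -1.96 (adjusted p = 8.5e-08). Of 8 HSP70 regulators, 3 fell and 0 rose with TRAIL against stimulation alone, among them Bag2, from 17.8 to 2.54 TPM, and Hspbp1, from 89.6 to 33.0 TPM (adjusted p = 4.8e-08 and 1.9e-06).

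Of 8 tested genes in the list of other heat-inducible genes, 3 rose and 1 fell with TRAIL against stimulation alone, and 2 rose against medium. Zfand2a, an arsenite- and heat-inducible gene of protein degradation, was at 13.0, 9.87 and 10.7 TPM in medium, at 13.3, 14.0 and 12.6 TPM after stimulation and at 118, 133 and 142 TPM with TRAIL. It rose by 3.20 (SE 0.12, adjusted p = 8.6e-09) against stimulation alone and by 3.44 (adjusted p = 8.8e-08) against medium. Ier5, which has been tied to HSF1 regulation, was at means of 190, 57.4 and 195 TPM in medium, after stimulation and with TRAIL, and rose against stimulation alone by 1.75 (adjusted p = 4.7e-08). The metallothionein Mt1 rose against medium by 1.03 (adjusted p = 0.00034), a call that was lost without medium replicate 3 (0.98) or TRAIL-treated replicate 2 (0.95) or 3 (0.98). The mitochondrial chaperone Hspd1 fell from 915 to 276 TPM against stimulation alone, by a log2 fold change of -1.72 (adjusted p = 5.7e-08).

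No other HSF gene was called in any comparison. Hsf2 was at means of 14.6 TPM in medium, 30.0 TPM after stimulation and 16.3 TPM with TRAIL, and its log2 fold changes were 0.99 for stimulation against medium and -0.84 for TRAIL against stimulation alone (adjusted p = 1.7e-05 and 6.2e-05), both under the limit of 1, which the first passed without medium replicate 1 (1.09) or stimulated replicate 3 (1.01). Hsf4 was at 1.91, 1.25 and 1.42 TPM. Hsf3 was at 0.0001 TPM in every library and Hsf5 at 0.111 TPM or less, so that neither was tested. Hsbp1, which encodes an HSF1-binding protein, was at means of 71.4, 57.5 and 46.3 TPM, with a log2 fold change of -0.62 (adjusted p = 0.0043) with TRAIL against medium. Of 9 further small heat shock genes, 2 were tested and 0 called.

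**Figure D5:**
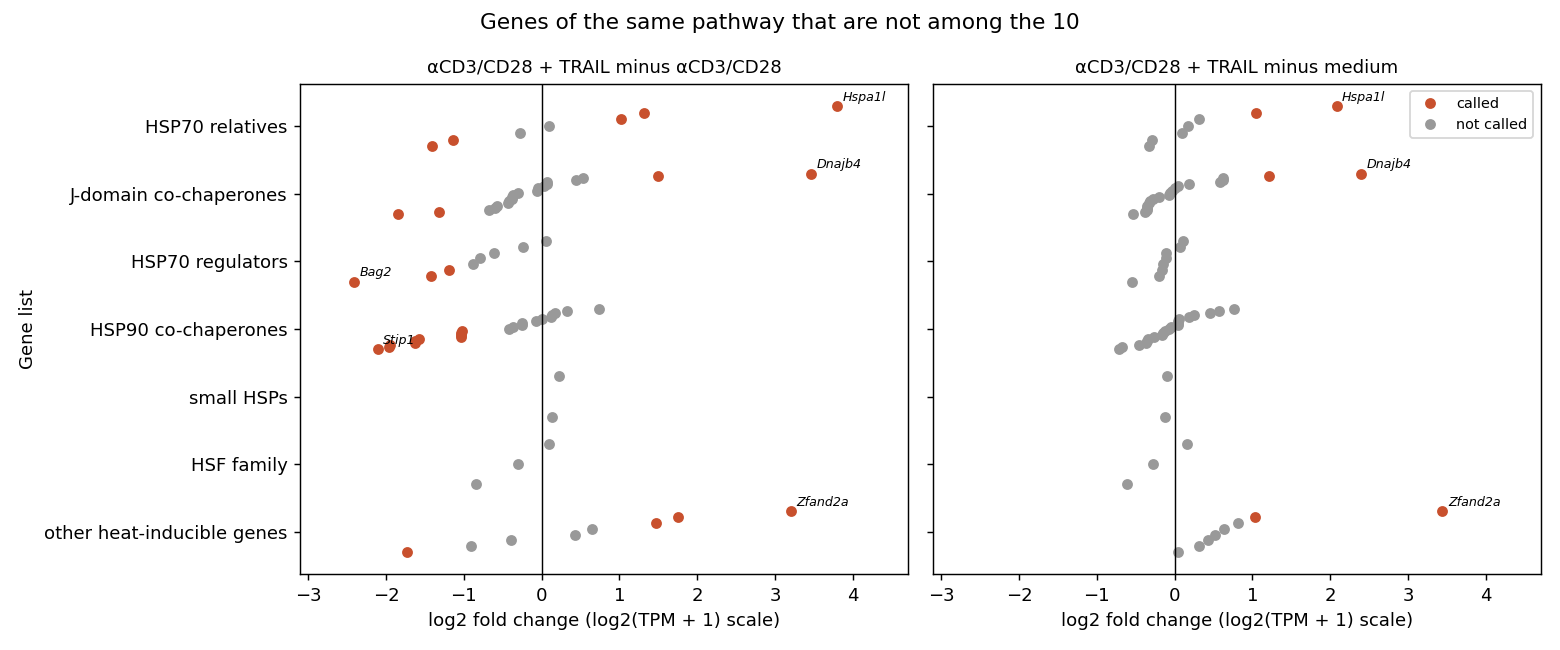
Log2 fold changes (x axis) of the 69 tested genes of the 7 chaperone lists (y axis), with TRAIL against stimulation alone (left) and against medium (right). Each point is a gene, red where called and gray where not, spread vertically only for legibility. Dnajb4, Zfand2a and Hspa1l are far to the right in both panels, and the co-chaperones of HSP90 have red points only to the left of 0 in the left panel and none in the right.

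The heat shock unit pair was also counted in the promoters of these genes. Of the 8 that rose with TRAIL against stimulation alone, 7 had a promoter window and 3 of these held a match (Dnaja1, Dnajb4 and Zfand2a). Of the 18 that fell, 15 had a window and 4 held a match, among them Hspd1 and Nudc, and of the 43 others, 38 had a window and 9 held one. Among genes with a window, the run of 3 units was in 0 of the 7 that rose, 1 of the 15 that fell and 3 of the 38 others. Here a gene was counted if any of its windows held a match. The shares given above, 15.1% with a pair and 0.603% with the run, are of single windows. The measures are therefore not alike, and the counts were not tested.

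The genes most like the sum of Hspa1a and Hspa1b over the 9 libraries were sought among 4250 genes outside the 10 by Pearson's r on log2(TPM + 1), which is a description over 3 groups and not over independent conditions. Sox4, Tob1, Polg2 and Klf4 were among the highest, with r of 0.998 to 0.999. Sox4 had means of 23.9, 2.60 and 44.8 TPM in medium, after stimulation and with TRAIL, and Klf4 had 33.0, 3.48 and 65.8 TPM. They shared the order of the groups but not the size, since none of these 4 was called with TRAIL against medium. Of the 10 genes, Bag3, Hspb1 and Dnajb1 had r of 0.82, 0.82 and 0.79 with the sum, Hsph1 had 0.087 and Hsp90ab1 had -0.81.

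Other stress programs were set beside the chaperones by lists. Of 11 early response genes, which are switched on within minutes of many stimuli, 10 rose with TRAIL against stimulation alone and 7 against medium, with none called lower, beside 16.6% and 2.49% of all genes tested that were called higher. Their summed level was 2867 to 3323 TPM in medium, 1326 to 1461 TPM after stimulation and 7358 to 8199 TPM with TRAIL, the same order of groups as for Hspa1a and Hspa1b. Junb was at means of 1069, 557 and 2192 TPM and Nr4a1 at 177, 215 and 1926 TPM. The order thus held for the sum and not for every gene, since the mean of Nr4a1 was lowest in medium. Of 8 targets of NRF2, the factor of the oxidative stress response, 1 rose and 3 fell with TRAIL against stimulation alone. The one that rose was the heme oxygenase gene Hmox1, also known as heat-inducible, with means of 379, 53.1 and 424 TPM in medium, after stimulation and with TRAIL. The macrophage markers C1qa and Csf1r were also lowest after stimulation, at means of 3.06 and 2.08 TPM. Whether RNA of such cells accounts for the Hmox1 levels was not tested. Of 11 genes of endoplasmic reticulum stress, 1 rose and 4 fell. The one that rose was Dnajb9, a J-domain protein of that compartment, which went from 17.1 TPM after stimulation to 160 TPM with TRAIL. Neither list had a gene called with TRAIL against medium.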

How the data were processed

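The deposited values are TPM, given by the authors for 55487 genes with Ensembl mouse identifiers and a total of 1000000 in each library. The paper names Trimmomatic, HISAT2, GRCm38 and DESeq2, and the submitters' processing notes list Trimmomatic 0.36, HISAT2 2.1.0, SAMtools 1.2, StringTie 2.1.2 and DESeq2 beside the human build name GRCh38. Of the identifiers, 55141 were found in GENCODE M21, 99.4% at the same GRCm38 locus. The program behind the TPM values is not given in the sources used here. Depth is unknown, and between 57.6 and 60.1% of genes per library are listed at 0.0001 TPM. Since the values are not counts, groups were compared with limma 3.58.1 in R 4.3.3 on log2(TPM + 1), by lmFit and then eBayes with its trend option, over 9 libraries at once and without a replicate block. An exact test of 3 against 3 cannot give a p below 0.1. On simulated data the fit was checked before use, but the outcome of that check is not reported here. Coding sequences were taken as the longest open reading frame of each GENCODE M21 transcript. Python 3.11.15, pandas 2.3.3 and matplotlib 3.10.9 were used for tables and figures.

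The 10 genes, the gene lists and the tests were chosen with earlier results of these data known. The rule for other named genes took all HSF family genes, and from each other chaperone list and each comparison with TRAIL-treated cells up to 2 called genes with the largest rise and up to 2 with the largest fall, provided that a group mean reached 10 TPM and the libraries compared did not overlap. It also took the 5 genes most like the Hspa1a and Hspa1b sum and, from the other lists, up to 3 genes of highest mean TPM. Alas2, Cd8a, Hmox1, Dnajb9, Csf1r, Adgre1 and C1qa were named after their values were seen. Some genes that the rules take are not reported here.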

Additional observations from a re-analysis of the deposited data

How the results depend on the processing

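Results were computed again with other pseudocounts, filters, scalings and thresholds, with a fit that had no variance trend or fewer libraries, with a replicate block, and without each library in turn. No fold change of a called gene turned its direction. With adjusted p alone and no limit on size, 46 chaperone list genes were called after stimulation against medium (23 with the limit), 47 with TRAIL against stimulation alone (26) and 29 with TRAIL against medium (6). Over all 19 alternatives, the number of the 10 genes called ranged over 5 to 9, 5 to 7 and 6 to 10 in these comparisons. Hsph1 was also called with TRAIL against stimulation alone with quantile normalization (1.12). Hspb1 was called lower after stimulation with a pseudocount of 0.1 (-1.73), and its calls with TRAIL were lost with a pseudocount of 5 (0.83 against stimulation alone, 0.71 against medium). Hspb1 was not tested, and so had no call, with the filter of 5 TPM or without any one of the TRAIL-treated libraries, through which alone it passed the filter. The log2 fold change of Hsf1 with TRAIL against stimulation alone, which was not called, ranged from -0.21 to 0.0073. Among 19 other named chaperone genes, 12 of 1023 recomputed fold changes lost a call and 5 gained one, with none reversed. Beside the leave-out cases given with the genes, a pseudocount of 5 ended the calls of Hspa2 (0.92 against stimulation alone, 0.75 against medium), of Mt1 against medium (0.78) and of Hspa1l (-0.57) and Dnajb4 (-0.86) after stimulation. Quantile normalization ended that of Hspa4 with TRAIL against stimulation alone (-0.91). Both other scalings ended that of Dnajb4 after stimulation (-0.89 and -0.85) and added one of Hsf2 (1.17 each), as did a pseudocount of 0.1 (1.04). For the sum of Hspa1a and Hspa1b, the ranges were -7.28 to -5.99, 8.30 to 9.61 and 2.07 to 2.49. Median-of-ratios scaling and quantile normalization moved the median of all genes by 0.17 and 0.19 after stimulation and by 0.15 and 0.14 with TRAIL against medium. The samples share replicate numbers across groups. Deviations of same-numbered libraries from their group means correlated at -0.31 to 0.29, above 0.1 in 3 of 9 pairs. Pairs of different numbers ranged from -0.38 to 0.29. Pairing by number was thus not seen, but values so few and not independent cannot exclude it. A fit with the replicate block called 6, 6 and 7 of the 10 genes. Of the chaperone list genes it called 23, 26 and 6, and all these numbers are the same as without the block.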
